A study of Mus musculus with 8 samples.

Results

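A set of 10 genes of the Notch pathway were examined in cells sorted from tumor-bearing mouse lungs, out of 27179 genes counted in all. The 10 were chosen by name and role, with earlier results of these data known, as the receptors Notch1, Notch2, Notch3 and Notch4, the ligands Dll1, Dll4, Jag1 and Jag2, and the target genes Hes1 and Hey1. All 10 were found in the count table and all 10 passed the filter on low counts. The mice were labelled C57BL/6 (C57BL/6J in the study's methods) with an Eml4-Alk translocation, a rearrangement of both genes made in the lung by an adenovirus that carries Cas9 and guides. They were 18 to 22 weeks of age and 11 to 12 weeks after tumor induction, and each had received 4.5 nmol of QZ1-(PEG2K), a quenched fluorescent probe that lights up and tags cells when a protease cuts its linker. Live lung cells negative for CD45 and CD11b, surface proteins of blood cells, were sorted by probe signal. They gave a high-signal population, QZ1-hi, and a low-signal population, QZ1-lo, with at least 100000 cells in each collection. Bulk RNA-seq was made of 4 QZ1-hi and 4 QZ1-lo libraries. Both populations came from Eml4-Alk lungs given the probe, so neither is a healthy or an uninjected control, and each is a mixture of cell types whose purity the sources used here do not give.

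Notch signaling passes between touching cells. A Delta-like or Jagged ligand on one cell binds a Notch receptor on its neighbor, the receptor is cut in sequence by an ADAM protease and by gamma-secretase, and the freed intracellular part enters the nucleus and joins the DNA-binding protein RBPJ and a Mastermind coactivator. Target genes of the Hes and Hey families encode repressors that carry the signal on. In vessels the pathway sets arterial identity and limits sprouting, with Dll4, Notch1, Notch4 and Hey1 used by endothelial cells and Notch3 by the pericytes and smooth muscle cells around them, and in the lung it also guides the choice of airway epithelial fates.

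The genes lie on 5 chromosomes of the mouse genome (GRCm38, GENCODE M21 annotation), and all are protein coding. The receptors are Notch1 (Entrez 18128) at chr2:26457903-26516663 on the minus strand, Notch2 (18129) at chr3:98013527-98150361 on the plus strand, Notch3 (18131) at chr17:32120820-32166852 on the minus strand and Notch4 (18132) at chr17:34564268-34588503 on the plus strand. The ligands are Dll1 (13388) at chr17:15367354-15376872 on the minus strand, Dll4 (54485) at chr2:119325784-119335962 on the plus strand, Jag1 (16449) at chr2:137081456-137116644 on the minus strand and Jag2 (16450) at chr12:112907819-112929776 on the minus strand. The target genes are Hes1 (15205) at chr16:30064384-30067796 on the plus strand and Hey1 (15213) at chr3:8663359-8667256 on the minus strand.

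The sequences just before the RefSeq start sites of Dll4 and Notch4 are shown because these were the members with the largest fold differences between the populations. They are RefSeq windows of 250 bases on GRCm38.p6, printed in the direction of the gene. The Notch4 window runs past the GENCODE gene start given above, as the RefSeq and GENCODE starts differ. Capitals mark the letters of the N box, CACNAG, which Hes-type repressors bind.
Dll4 (chr2:119325534-119325783, plus strand): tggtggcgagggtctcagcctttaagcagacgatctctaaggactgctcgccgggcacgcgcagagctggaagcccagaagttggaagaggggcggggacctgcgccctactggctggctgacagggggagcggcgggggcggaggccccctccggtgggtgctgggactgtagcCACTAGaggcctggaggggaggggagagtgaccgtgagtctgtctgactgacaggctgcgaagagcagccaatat
Notch4 (chr17:34564045-34564294, plus strand): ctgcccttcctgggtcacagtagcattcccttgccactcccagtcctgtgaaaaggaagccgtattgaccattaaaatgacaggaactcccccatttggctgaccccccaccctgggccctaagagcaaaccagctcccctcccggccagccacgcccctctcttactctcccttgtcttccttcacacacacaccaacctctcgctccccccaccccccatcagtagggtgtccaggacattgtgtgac
The Dll4 window held 1 N box, 70 bases before the start site, and the Notch4 window held none. Windows were matched for 8 of the 10 members. Hes1 and Hey1 are named only. Searched on both strands, CACNAG was found in the windows of 4 of the 8 genes, namely Notch1, Notch2, Notch3 and Dll4, against 36.7% of 32851 RefSeq windows of the same length. The core of the RBPJ site, TGGGAA, was found in 0 of the 8, against 21.6% of all windows. These are matches of letters and not measured sites. G and C made up 65.6% of the Dll4 window and 58.4% of the Notch4 window, and the median over all windows was 52.4%.

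The libraries held 18380918 to 26847938 counts in total, of which the members took between 41 and 4878 in a library. Levels are given as CPM, counts relative to the TMM-scaled size of the library, a scaling that takes most genes as not changed, and 3 counts correspond to 0.0894 to 0.179 CPM. Mitochondrial and ribosomal RNA genes took 43.7% to 65.6% of the counts in QZ1-hi and 34.0% to 53.2% in QZ1-lo. Marker lists of cell types differed strongly between the populations. The summed level of 10 endothelial markers was 969 to 2270 CPM in QZ1-hi and 84.4 to 308 CPM in QZ1-lo, and that of 6 epithelial markers was 450 to 737 CPM and 1267 to 1781 CPM respectively. EpCAM, the epithelial surface protein whose gene is 1 of those 6, was the other axis of the sorting gate. In bulk samples, fewer cells of a type and less RNA per cell cannot be told apart.

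Of the 10 members, 6 were higher in QZ1-hi than in QZ1-lo, 2 were lower and 2 were not called (edgeR quasi-likelihood test, Benjamini-Hochberg adjusted p under 0.05 over all 15583 genes tested). Over all genes tested, 9.88% were called higher and 8.21% lower. Among the members, the receptors gave 2 of 4 called higher, the ligands 3 of 4 higher and 1 lower, and the targets 1 higher and 1 lower. The median log2 fold change was 0.72 over the 10 members and 0.02 over all genes tested. The study named Notch1, Notch4, Dll1 and Dll4 from these same libraries, so their share in the count is not independent evidence. DESeq2 and limma-voom each called the same 8 members in the same directions.

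In 6 members every QZ1-hi library lay above every QZ1-lo library, in 2 every QZ1-hi library lay below, and in 2 the groups overlapped. The share of all tested genes was 11.9% for the first pattern and 10.7% for the other. For a gene without overlap the exact permutation test over the 70 assignments of 8 libraries gave p = 0.0286, two-sided, the smallest p that this unpaired test allows. With libraries scaled by their totals only, Notch1, Notch4, Dll1 and Jag2 overlapped between the populations, Dll4 and Hey1 still lay wholly above, and Jag1, Hes1 and also Notch2 lay wholly below.

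**Figure D1:**
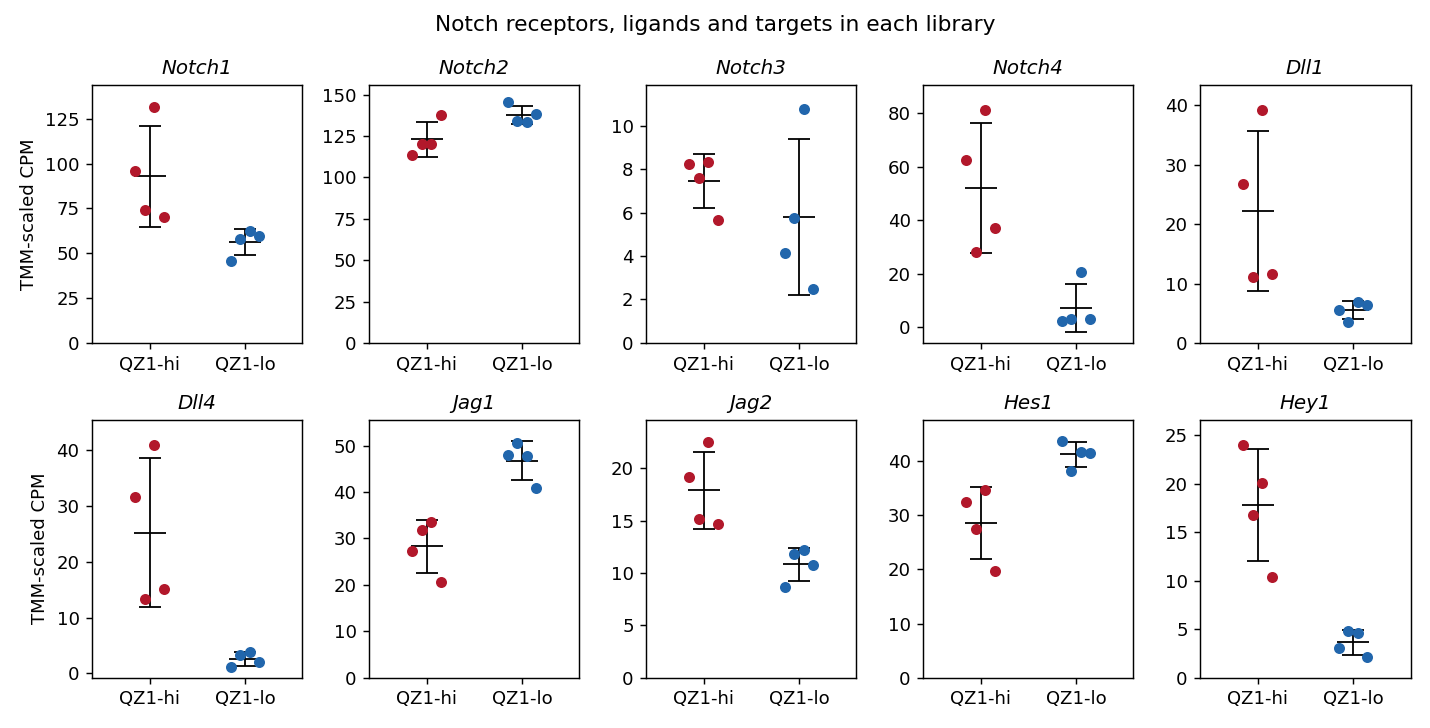
TMM-scaled CPM of the 10 Notch members (vertical axis, a separate linear scale in each panel) in the QZ1-hi and QZ1-lo libraries, with a point for each library and a bar for the mean ± SD (n = 4). The libraries did not overlap in 8 panels and overlapped for Notch2 and Notch3.

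Among the receptors, Notch4 had the widest separation. Notch4, the receptor most restricted to endothelium, stood at 62.4, 27.96, 81.4 and 37.0 CPM in QZ1-hi replicates 1 to 4. In QZ1-lo it stood at 2.06, 2.81, 20.7 and 3.11 CPM. All QZ1-hi libraries were above all QZ1-lo libraries, and QZ1-lo replicate 3 stood far above the other QZ1-lo libraries. The means were 52.2 ± 24.3 and 7.16 ± 9.01 CPM (SD, n = 4 each). The fitted difference was 7.28-fold, or 2.86 ± 0.69 on the log2 scale (SE, edgeR adjusted p = 0.0140). Without QZ1-lo replicate 3 the log2 fold change was 4.30 (edgeR adjusted p = 0.000168), and with robust shrinkage of the dispersions the call was lost (edgeR adjusted p = 0.0618). With libraries scaled by totals only, the call was kept but QZ1-hi replicates 2 and 4 fell below QZ1-lo replicate 3 (exact permutation p = 0.0857 for the levels).

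Notch1, the receptor most widely used in arterial and T cell development, was higher in QZ1-hi by a smaller margin. Its levels were 95.9, 73.8, 131 and 70.1 CPM in QZ1-hi and 45.9, 57.8, 62.5 and 59.4 CPM in QZ1-lo. The lowest QZ1-hi library, replicate 4, was above the highest QZ1-lo library, replicate 3. Means of 92.8 ± 28.1 and 56.4 ± 7.27 CPM (SD, n = 4 each) went with a fitted difference of 1.65-fold and a log2 fold change of 0.72 ± 0.20 (SE, edgeR adjusted p = 0.0258). The call was lost by edgeR without QZ1-hi replicate 1 (adjusted p = 0.0550), QZ1-hi replicate 3 (0.0694), QZ1-lo replicate 1 (0.0749) or QZ1-lo replicate 2 (0.0591). With libraries scaled by their totals only, the log2 fold change was 0.31 (edgeR adjusted p = 0.436). Exons of 0610009E02Rik and Gm13568 on the opposite strand cover 7.50% and 2.91% of the exonic bases of Notch1, and the strand setting of the counting is not given in the sources used here.

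Notch2 carried the most counts of the 4 receptors in 7 of the 8 libraries and was not called. This receptor of many epithelial and blood cell types stood at 114, 120, 120.1 and 138 CPM in QZ1-hi and at 145, 134, 133 and 138 CPM in QZ1-lo. The groups overlapped through QZ1-hi replicate 4. Its log2 fold change was -0.16 ± 0.11 (SE, edgeR adjusted p = 0.360), and the exact permutation test of the levels gave p = 0.0857. It was called under none of 16 alternative settings. With libraries scaled by totals only, its log2 fold change was -0.65 (edgeR adjusted p = 0.0612) and the populations did not overlap (exact permutation p = 0.0286). A same-strand gene model, Gm42820, shares 5.02% of its exonic bases.

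Notch3, the receptor of pericytes and vascular smooth muscle, was low in both populations. It reached 8.26, 7.61, 8.33 and 5.66 CPM in QZ1-hi and 4.14, 5.78, 10.8 and 2.496 CPM in QZ1-lo. The highest and the lowest of all 8 values were both QZ1-lo libraries, replicates 3 and 4. Its log2 fold change was 0.36 ± 0.39 (SE, edgeR adjusted p = 0.602; exact permutation p = 0.429 for the levels), and the sign turned, to -0.08, when libraries were scaled by their totals only. The sum of 8 pericyte markers lay at 61.8 to 87.2 CPM in QZ1-hi and at 7.90 to 18.7 CPM in QZ1-lo without overlap, with 5 of the 8 called higher by edgeR. Higd1b was at 0 in QZ1-lo replicate 3 and Lamc3 in QZ1-lo replicate 4, and the other pericyte markers had counts in every library. Notch3 thus stood at 9.05% to 13.4% of the pericyte marker sum in QZ1-hi and at 31.6% to 57.8% in QZ1-lo. Gm17276 on the opposite strand covers 6.03% of its exonic bases.

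The Delta-like ligands and Jag2 were higher in QZ1-hi and Jag1 was lower. Dll4, the Delta-like ligand of arterial and sprouting endothelium, had the largest fold difference of the 10 members. In QZ1-hi it stood at 31.5, 13.3, 40.9 and 15.2 CPM, and in QZ1-lo at 1.22, 3.21, 3.84 and 2.05 CPM. The populations were apart, and replicates 1 and 3 were the highest of QZ1-hi. The means of 25.2 ± 13.3 and 2.58 ± 1.17 CPM (SD, n = 4 each) went with a fitted 9.80-fold difference and a log2 fold change of 3.29 ± 0.44 (SE, edgeR adjusted p = 0.000629), the 216th highest of the 15583 genes tested. The call was kept under all 16 alternatives, with values of 2.93 to 3.56 when each library was left out in turn. Gm14207 on the opposite strand covers 5.56% of its exonic bases.

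Dll1, the Delta-like ligand used in somite formation and in arteries, followed the same pattern at a smaller size. Its levels were 26.7, 11.2, 39.2 and 11.7 CPM in QZ1-hi against 5.58, 3.46, 6.91 and 6.43 CPM in QZ1-lo. Again QZ1-hi replicates 1 and 3 stood highest, and no libraries of the populations overlapped. Means of 22.2 ± 13.4 and 5.59 ± 1.53 CPM (SD, n = 4 each) went with a fitted 3.96-fold difference and a log2 fold change of 1.99 ± 0.40 (SE, edgeR adjusted p = 0.00554). The call was kept under all 16 alternatives, though the libraries overlapped when scaled by totals only (exact permutation p = 0.143 for the levels). The opposite-strand gene A930024N18Rik covers 20.5% of the exonic bases of Dll1, so reads of that gene cannot be told apart from those of Dll1 if the counting did not use strand.

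Jag1 was the ligand that ran the other way. This Jagged ligand, present in epithelium as well as in vessel walls, stood at 27.2, 31.8, 33.5 and 20.7 CPM in QZ1-hi and at 47.9, 50.6, 47.7 and 40.8 CPM in QZ1-lo. All QZ1-hi libraries were below all QZ1-lo libraries. The means, 28.3 ± 5.73 and 46.7 ± 4.18 CPM (SD, n = 4 each), went with a fitted level 1.65-fold lower in QZ1-hi and a log2 fold change of -0.72 ± 0.16 (SE, edgeR adjusted p = 0.00836). The call was kept under all 16 alternatives.

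Jag2, the other Jagged ligand, was higher in QZ1-hi. It was measured at 19.2, 15.2, 22.5 and 14.7 CPM in QZ1-hi and at 8.62, 11.8, 12.2 and 10.7 CPM in QZ1-lo. The populations did not overlap, and the gap between the nearest libraries, QZ1-hi replicate 4 and QZ1-lo replicate 3, was smaller than the SD within QZ1-hi. A mean of 17.9 ± 3.71 CPM against 10.8 ± 1.59 CPM (SD, n = 4 each) gave a log2 fold change of 0.73 ± 0.19 (SE, edgeR adjusted p = 0.0229). The call was lost by edgeR without QZ1-hi replicate 1 (adjusted p = 0.0569), QZ1-hi replicate 3 (0.0807), QZ1-lo replicate 1 (0.0668) or QZ1-lo replicate 4 (0.0510), and with libraries scaled by totals only the log2 fold change was 0.31 (edgeR adjusted p = 0.462).

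The target genes moved in opposite directions. Hey1, a repressor induced by Notch in arterial endothelium, stood at 24.03, 16.8, 20.1 and 10.4 CPM in QZ1-hi and at 3.01, 4.84, 4.63 and 2.17 CPM in QZ1-lo. The populations did not overlap, and replicate 4 was the lowest library of each. The means of 17.8 ± 5.76 and 3.66 ± 1.29 CPM (SD, n = 4 each) went with a fitted 4.87-fold difference and a log2 fold change of 2.28 ± 0.32 (SE, edgeR adjusted p = 0.000761), kept under all 16 alternatives.

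Hes1, a repressor that responds to Notch in many tissues and to other signals too, was lower in QZ1-hi. Its levels were 32.5, 27.4, 34.6 and 19.7 CPM in QZ1-hi and 43.7, 38.2, 41.7 and 41.4 CPM in QZ1-lo. The highest QZ1-hi library, replicate 3, was below the lowest QZ1-lo library, replicate 2. With means of 28.6 ± 6.62 and 41.3 ± 2.31 CPM (SD, n = 4 each), the log2 fold change was -0.53 ± 0.17 (SE), at the edge of the threshold (edgeR adjusted p = 0.0492). Leaving out a library ended the call by edgeR in 7 of 8 cases, for QZ1-hi replicate 1 (adjusted p = 0.0536), 2 (0.0901) or 4 (0.0912) and for QZ1-lo replicate 1 (0.116), 2 (0.0749), 3 (0.0885) or 4 (0.0927).

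**Figure D2:**
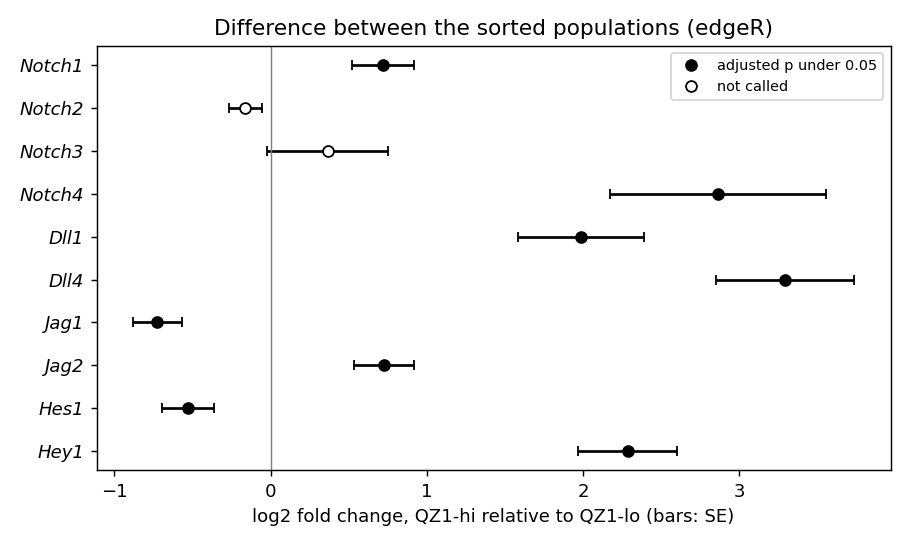
Log2 fold change of QZ1-hi against QZ1-lo (horizontal axis) for each of the 10 members (vertical axis), with bars for the SE, filled points for adjusted p under 0.05 and open points for members not called (Notch2 and Notch3). The values run from 3.29 for Dll4 to -0.72 for Jag1.

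Ratios of a pair of members within a library need no scaling between libraries, and 7 were tested. In 6 of them the populations did not overlap (exact permutation p = 0.0286 each, 0.0333 after Benjamini-Hochberg adjustment over the 7). For Dll4 to Jag1, Jag2 to Jag1 and Hey1 to Hes1 that outcome was fixed by the levels and adds no evidence. In each of those pairs the first gene lay wholly above in QZ1-hi and the second wholly below. On the log2 scale of counts, Dll4 to Jag1 differed most, at a mean of -0.30 for QZ1-hi and -4.29 for QZ1-lo, a difference of 3.99. The ratio of Hey1 to Hes1 was -0.71 against -3.56, and that of Notch4 to Notch1 was -0.91 against -3.67. The log2 differences were 2.85 for Hey1 to Hes1 and 2.76 for Notch4 to Notch1, and the Notch4 ratio of QZ1-lo replicate 3 stood well above those of the other QZ1-lo libraries.

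The remaining ratios were within a ligand family or between receptors, given as QZ1-hi against QZ1-lo. Dll4 was higher relative to Dll1 by 1.42, and Jag2 relative to Jag1 by 1.46, on the log2 scale. Notch2 was lower relative to Notch1 by a log2 ratio difference of -0.85. For Notch3 to Notch1 the libraries overlapped, with means of -3.60 and -3.47 (exact permutation p = 0.743).

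**Figure D3:**
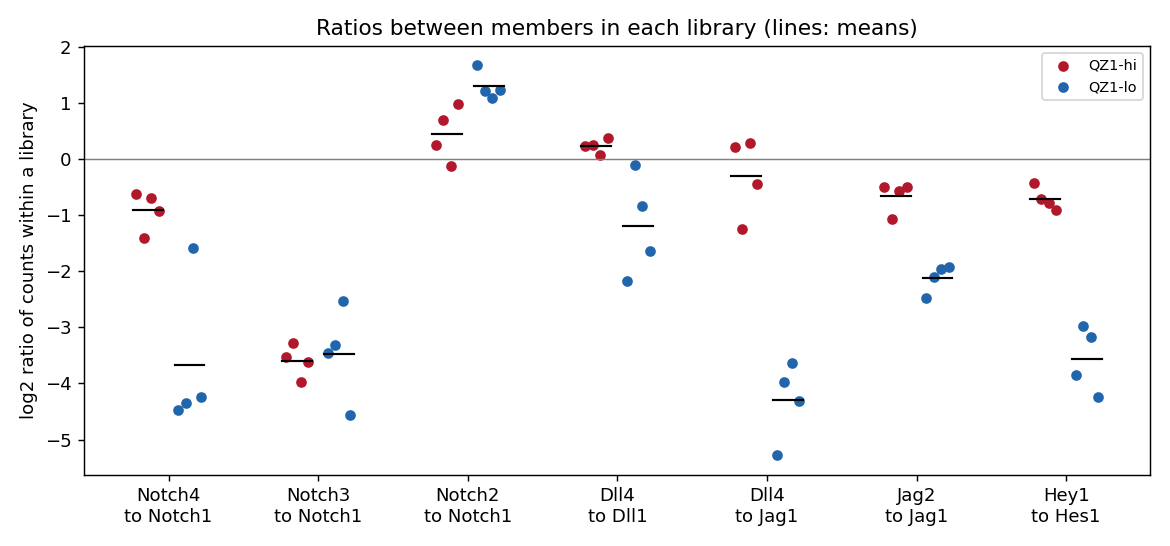
Log2 ratio of counts of a pair of members within each library (vertical axis) for the 7 pairs tested, with a point for each QZ1-hi and QZ1-lo library and a bar for the group mean. The populations are apart in 6 pairs and overlap for Notch3 to Notch1.

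Levels were compared between genes as CPM per kilobase of exonic sequence. The annotation used in the counting is not given, so the lengths counted may differ from the GENCODE lengths used here, and the order between genes depends on them. In QZ1-lo the order was clear at the top: Hes1 at 20.3 ± 1.13 CPM per kilobase, Notch2 at 12.8 ± 0.523, Jag1 at 8.02 ± 0.717, then Notch1 at 3.96 (SD, n = 4), with no overlap of libraries between neighbors. Below Notch1 came Jag2, Dll1, Hey1, Notch4, Notch3 and Dll4, with means of 1.55 to 0.670 CPM per kilobase. In QZ1-hi, Hes1 (14.02 ± 3.25) and Notch2 (11.4 ± 0.968) again had the highest means, but their libraries overlapped. Dll4, last in QZ1-lo, had the highest mean after these in QZ1-hi, with 6.55 ± 3.44 CPM per kilobase, and Notch1 (6.52), Notch4 (6.48), Hey1 (5.46), Dll1 (5.26) and Jag1 (4.86) followed within the spread of its libraries. Jag2 (2.57) and Notch3 (0.923) were lowest.

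The makeup of each family differed accordingly. Of the summed receptor level per exonic length, Notch4 made up 16.7% to 32.1% in the QZ1-hi libraries and 1.46% to 12.4% in the QZ1-lo libraries, while Notch2 made up 35.4% to 55.6% and 59.9% to 77.2%. The shares of Notch1 and of Notch3 overlapped between the populations. Of the summed ligand level, Jag1 made up 65.1% to 74.1% in QZ1-lo and 19.9% to 39.8% in QZ1-hi. Dll4 took 25.1% to 37.3% of the ligands in QZ1-hi and 2.86% to 7.93% in QZ1-lo, Dll1 19.3% to 32.2% and 6.81% to 14.4%, and the share of Jag2 overlapped. The receptors summed to 25.3 ± 4.66 CPM per kilobase in QZ1-hi and 18.3 ± 1.54 in QZ1-lo without overlap (SD, n = 4 each), and the ligands to 19.2 ± 7.70 and 11.6 ± 0.888 with overlap. The shares within a population depended on the division by length. With counts not divided by length, the mean share of Notch1 in QZ1-hi was 33.2% in place of 25.4%. Jag1 then had the largest mean ligand share in QZ1-hi, 32.1%, with Dll4 at 25.8% in place of 32.8%. The same shares lay apart or overlapped between the populations on both scales. All these shares are descriptions with no test.

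**Figure D4:**
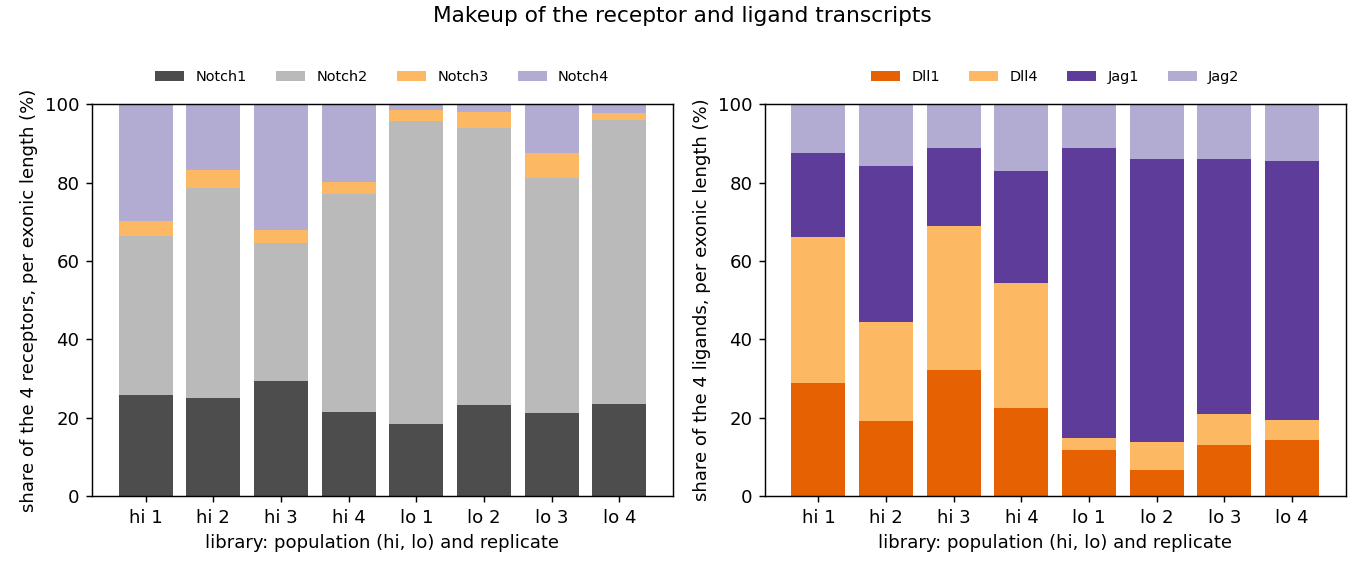
Share of each member (percent, vertical axis) in the summed level per exonic length of the 4 receptors and of the 4 ligands, as a stacked bar for each library. Jag1 fills most of the ligand bar in the 4 QZ1-lo libraries, and Dll4 and Dll1 take larger shares in the 4 QZ1-hi libraries.

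Markers of vessel cells moved with the populations and with the members. All 10 endothelial markers were called higher in QZ1-hi, and none was at 0 in any library of either population. Their sum was 1674, 1013, 2270 and 969 CPM in QZ1-hi replicates 1 to 4, so that replicates 1 and 3 were highest, as they were for 7 of the 8 called members, all but Jag1 and including Hes1, which was lower in QZ1-hi. Replicates 1 and 3 also had the lowest mitochondrial and ribosomal RNA share of QZ1-hi, 43.7% and 52.0%. That share was 62.8% and 65.6% in replicates 2 and 4. Which of these goes with the member levels was not tested. Among the QZ1-lo libraries, replicate 3 had the highest endothelial sum, 308 CPM, and also the highest Notch4 level.

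Set against the endothelial sum of the same library, the levels of 3 members overlapped between the populations. Notch4 stood at 2.76% to 3.82% of the sum in QZ1-hi and at 1.93% to 6.72% in QZ1-lo, and Dll4 at 1.31% to 1.88% and 1.19% to 2.42%. Hey1 stood at 0.887% to 1.66% and 1.51% to 3.33%. The other 7 members were lower in every QZ1-hi library on this measure, Dll1 with 1.10% to 1.73% against 2.25% to 7.61% and Notch1 with 5.73% to 7.29% against 20.3% to 70.4%. The mean endothelial sum was 9.26-fold higher in QZ1-hi, which by arithmetic lowers any member that rose by less. Against the arterial marker sum, Dll4 lay wholly above, at 13.0% to 17.8% in QZ1-hi and 3.05% to 7.54% in QZ1-lo. Notch4, Dll1 and Hey1 overlapped there, and the rest lay below. Efnb2 alone made up most of the arterial sum, with means of 89.4 CPM in QZ1-hi and 32.1 CPM in QZ1-lo, a fitted 2.78-fold difference. The fitted differences of the 6 arterial markers ran from 1.94-fold for Bmx to 11.2-fold for Gja4, so the place of Dll4 depends on the marker it is set against. Against the pericyte sum, Notch4, Dll1, Dll4 and Hey1 overlapped, and the rest lay below. Against the epithelial sum every member lay above. How much of each member's difference goes with the number of endothelial cells was not tested.

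**Figure D5:**
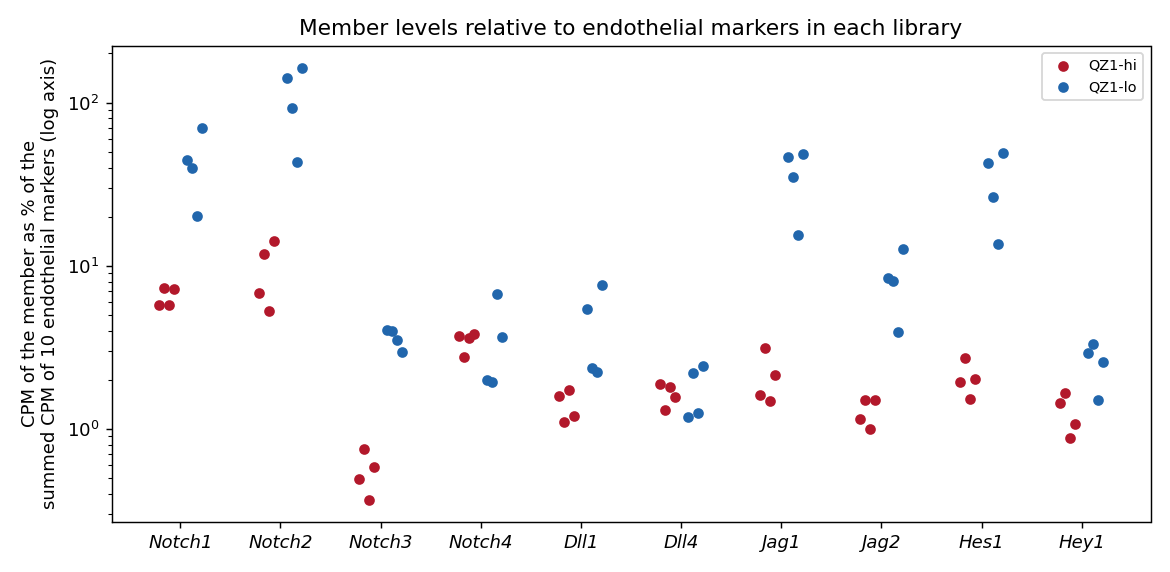
Level of each member as a percent of the summed level of 10 endothelial markers in the same library (vertical axis, log scale), with a point for each QZ1-hi and QZ1-lo library. The populations overlap for Notch4, Dll4 and Hey1, and the other 7 members lie lower in QZ1-hi.

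The other marker lists gave the following. In QZ1-hi, 3 of 6 arterial endothelial markers were called higher (summed level 102 to 231 CPM against 30.5 to 60.9 CPM in QZ1-lo), 5 of 6 capillary endothelial markers (267 to 539 against 55.2 to 126 CPM) and 5 of 6 fibroblast markers (921 to 1850 against 26.6 to 218 CPM). All 4 mesothelial markers were higher (38.4 to 268 against 5.93 to 36.5 CPM), and 2 of 5 smooth muscle markers were higher and 1 lower (25.0 to 39.6 against 10.3 to 21.6 CPM). All 6 epithelial markers were called lower, as were 4 of 5 tested airway markers (325 to 1013 against 1459 to 4116 CPM). Of 5 alveolar type 1 markers 4 were lower and 1 higher (408 to 643 against 794 to 965 CPM). Of 6 alveolar type 2 markers 1 was called higher, Sftpc, the gene of surfactant protein C (log2 fold change 0.78, edgeR adjusted p = 0.0231). The sums of alveolar type 2 markers (5572 to 10171 against 4209 to 6589 CPM) and of blood cell markers (2863 to 6436 against 2263 to 5197 CPM) overlapped. Lyz2 alone made up most of the blood cell sum, with means of 3600 CPM in QZ1-hi and 2534 CPM in QZ1-lo. The hemoglobin genes went the other way, with means of 155 and 479 CPM for Hba-a1 and 37.4 and 114 CPM for Hbb-bs. None of the 7 blood cell markers was called by edgeR. Ptprc, the gene of CD45, was present in both populations although the sort took cells negative for CD45. It stood at 71.4 to 222 CPM in QZ1-hi and 93.4 to 161 CPM in QZ1-lo.

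Of 59 other genes of the pathway, 54 passed the filter, 4 were called higher in QZ1-hi (7.41%), 3 lower (5.56%) and 47 were not called, beside 9.88% higher and 8.21% lower of all genes tested. Dll3, Dlk2, Hey2, Hes5 and Hes7 did not pass the filter. Among ligands and targets, Heyl, a target gene known from smooth muscle and pericytes, rose from a mean of 0.827 to 3.86 CPM, a log2 fold change of 2.21 ± 0.53 (SE, edgeR adjusted p = 0.0140), which was lost without QZ1-hi replicate 3 (edgeR adjusted p = 0.0531). Dlk1, a Delta-like protein that lacks the receptor-activating domain, rose from 57.6 ± 13.7 to 147 ± 98.1 CPM (SD, n = 4 each; edgeR adjusted p = 0.0283). That call ended without QZ1-hi replicate 1 (edgeR adjusted p = 0.0524) or 2 (0.0537) and without QZ1-lo replicate 2 (0.0564), 3 (0.0607) or 4 (0.0717), with libraries scaled by totals only (0.0618) and with robust shrinkage (0.0765). Nrarp, a feedback inhibitor and target, had a log2 fold change of 0.98 ± 0.42 and was not called (edgeR adjusted p = 0.146).

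Numb and Mfng were the other genes that rose. Numb, an adaptor that promotes uptake and loss of the receptor, had 43.6 ± 5.75 CPM in QZ1-hi after 22.3 ± 3.39 CPM in QZ1-lo (SD, n = 4 each). Its log2 fold change was 0.97 ± 0.15 (SE, edgeR adjusted p = 0.00119), and it was not called with libraries scaled by totals only (edgeR adjusted p = 0.190). Mfng, a Fringe enzyme that adds sugar to the receptor and shifts its choice of ligand, rose from 1.42 to 6.53 CPM with a log2 fold change of 2.19 ± 0.69 (SE, edgeR adjusted p = 0.0487). The groups overlapped for Mfng, at 2.26 to 11.6 CPM in QZ1-hi and 0.286 to 3.22 CPM in QZ1-lo, and the call ended without QZ1-hi replicate 1 (edgeR adjusted p = 0.112) or 3 (0.149) and without QZ1-lo replicate 1 (0.108), 2 (0.121) or 4 (0.0805), and with robust shrinkage (0.0629).

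Neurl3, Spen and Maml3 fell. Neurl3, of the Neuralized family of ubiquitin ligases, fell from 21.2 to 11.3 CPM (log2 fold change -0.91 ± 0.21, SE, edgeR adjusted p = 0.0101), kept under all 16 alternatives. Spen, a corepressor that binds RBPJ, fell from 127 ± 4.96 to 96.1 ± 10.6 CPM (SD, n = 4 each; edgeR adjusted p = 0.0295), a call that ended without QZ1-hi replicate 1 (edgeR adjusted p = 0.0528), 3 (0.0617) or 4 (0.0678) and without QZ1-lo replicate 1 (0.0796), 2 (0.0829) or 4 (0.0548). Maml3, a Mastermind coactivator, fell from 22.9 to 15.2 CPM (edgeR adjusted p = 0.0437), lost without QZ1-hi replicate 2 (edgeR adjusted p = 0.0926) or 4 (0.110) and without QZ1-lo replicate 1 (0.113), 3 (0.113) or 4 (0.0697), and by limma-voom (adjusted p = 0.0591). Of the 10 receptor cleavage genes, edgeR with TMM scaling called 0, and 2 had an unadjusted p under 0.05, 1 in each direction. Adam10, the protease that makes the ligand-dependent cut, stood at the edge with a log2 fold change of -0.41 (edgeR adjusted p = 0.0505), and it was called lower under 8 of the 16 alternatives, DESeq2 and limma-voom among them.

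With libraries scaled by their totals only, log2 fold changes over all genes had a median of -0.44 in place of 0.02, and 882 genes were called higher and 2509 lower, against 1540 and 1280 with TMM scaling. Under that scaling 6 of the 8 called members kept their calls by edgeR, all but Notch1 and Jag2, while 4 of the 8, Dll4, Hey1, Jag1 and Hes1, kept populations that did not overlap.

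Likeness of pattern was measured as the root mean square difference of log2 CPM over the 8 libraries after centring each gene on its mean, among 14038 genes of at least 1 CPM on average. For Dll4 the nearest genes outside the members were Tmem204 (0.252) and Vwf (0.279), the gene of the endothelial von Willebrand factor. For Notch4 they were Lhx6 (0.246) and Glp1r (0.306), for Dll1 Gimap8 (0.265) and Ephb4 (0.288), and for Hey1 Tbx4 (0.200) and Spry4 (0.218). Notch1 and Jag2 were nearer to each other (0.0935) than to any gene outside the members, of which Sipa1l2 and Tnfrsf1a were nearest to both (0.118 to 0.148).

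Among the members that were lower or not called, Jag1 had Nectin3 (0.0832) and Pcp4l1 (0.120) as nearest genes, and Hes1 had Emp2 (0.0990) and Atl2 (0.101). Notch2 lay nearest to Rlim (0.0380) and Zc3h15 (0.0416), and Notch3 to Tfcp2 (0.213) and Aif1l (0.224). These distances are over 8 libraries of 2 populations and describe the measured levels only.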

How the data were processed

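The deposited file held raw counts per gene and library for 27179 Entrez Gene identifiers, which the authors made from aligned reads with Rsubread after preparing stranded total RNA libraries. The labels name mm10 and DESeq2. The aligner, the annotation and the strand setting are not given in the sources used here. Symbols were matched for 25275 identifiers. The labels state that the replicates are biological but tie no library to a mouse, so p-values measure the spread between these libraries. QZ1-hi and QZ1-lo were gates of the same sort, so a library of each may share a mouse. All tests took the libraries as independent, which the sort does not ensure.

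The main analysis used edgeR 4.0.16 (R 4.3.3) with TMM scaling, filterByExpr (minimum count 10, minimum total 15) and no covariate. QZ1-hi was compared with QZ1-lo by the quasi-likelihood method in 15583 genes, with Benjamini-Hochberg adjustment at 0.05. Standard errors were derived from the F statistic of each gene, as the absolute log2 fold change over the root of F. Single values were compared by exact permutation tests (scipy 1.17.1). Ratios used counts plus 0.5. Levels per length used exonic lengths of GENCODE M21. The 16 alternatives were DESeq2 1.42.0, limma-voom 3.58.1 with sample quality weights, DESeq2 size factors, totals only, mitochondrial and ribosomal RNA genes left out, no filter, a minimum of 10 counts per library, robust shrinkage and each of 8 libraries left out in turn. An adjusted p under 0.01 was also tried. The procedure was tested on simulated data. The floor of 3 counts covers counting error only.

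The 10 members and all gene lists were chosen with earlier results of these data known. The genes named are the members, the other pathway genes called, those a sentence counts, and the 2 genes nearest to each member. Nrarp was named after its values were seen.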

Additional observations from a re-analysis of the deposited data

Results flagged for a closer look

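In 34 groups of 4 libraries, 20 of levels and 14 of ratios, a Dixon test asked whether 1 library stood apart from the other 3 of its population. Chance flags about 1 in 20 such groups, and 3 were found. Notch4 stood at 20.7 CPM in QZ1-lo replicate 3, while the rest of QZ1-lo lay at 2.06 to 3.11 CPM. In the same library the log2 ratio of Notch4 to Notch1 was -1.60, against -4.47 to -4.25 in the others. The endothelial marker sum was also highest there among QZ1-lo libraries, at 308 CPM against 84.4 to 145 CPM, and its part in the Notch4 value was not tested. The log2 ratio of Jag2 to Jag1 was -1.07 in QZ1-hi replicate 2, against -0.57 to -0.50 in the other QZ1-hi libraries.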

How the results depend on the processing

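No paired analysis was possible because neither the labels nor the methods say which libraries of the 2 populations came from 1 mouse. With libraries scaled by totals only, 882 genes were called higher and 2509 lower, 2 other pathway genes higher and 11 lower, and Notch3 turned to a log2 fold change of -0.079 and a level difference of -0.36 CPM. The turn goes with the shift of all genes to a median of -0.44 under that scaling. With a threshold of 0.01, 902 genes were called higher and 665 lower, 3 members higher and 1 lower, and 1 other pathway gene higher and 0 lower. With each library left out in turn, 4 to 6 members were higher and 1 to 2 lower, the 1 always Jag1, and 2 to 6 other pathway genes were higher and 1 to 3 lower. The other pathway genes called were 7 higher and 6 lower by DESeq2, 5 lower by limma-voom, and 2 higher and 5 lower with robust shrinkage, and the cause was not tested. With at least 10 counts required in every library 2 were called higher, as Heyl and Mfng did not pass that filter and were not tested. Dll1, Dll4, Hey1 and Jag1 kept their calls under all 16 alternative fits. With 3 libraries in a group, the exact permutation tests of ratios could not pass the threshold. Depth limits Dll4 and Hey1 most, with as few as 41 and 53 counts in a QZ1-lo library.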
